A study of Mus musculus with 18 samples.

Results

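The genes described here are 10 heat shock chaperones and their partners, chosen by symbol from the 18204 genes of a mouse RNA-seq table: Hspa1a, Hspa1b, Hspa8, Hsp90aa1, Hsph1, Dnajb1, Dnaja1, Bag3, Hspd1 and Hspe1. Most of their proteins work in the cytosol and nucleus, but Hspd1 and Hspe1 encode the mitochondrial chaperonin and its lid, so "cytosolic" does not describe the whole set.

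Heat shock proteins hold or refold proteins that have lost or not yet reached their shape, and HSP70, HSP90 and the chaperonins do so in cycles of ATP binding and hydrolysis. When unfolded protein builds up, the heat shock factor HSF1 forms trimers and binds repeats of the unit nGAAn upstream of heat shock genes. The stress-inducible HSP70 genes Hspa1a and Hspa1b are a classic readout of that response, while Hspa8 is made constitutively in unstressed cells, macrophages included.

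J774.1 is a mouse macrophage cell line. It was used as wildtype cells and as a double knockout of Ctbp1 and Ctbp2 (dKO), grown from diluted cells watched for monoclonal origin. The number of dKO clones behind the sequenced samples is not stated. CTBP proteins are transcriptional corepressors with a dehydrogenase fold, and MTOB and 4-Cl-HIPP are inhibitors that occupy the substrate pocket of that fold. Treating cells with and without CTBP asks which responses to the inhibitors need their nominal target.

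The 18 samples formed 6 groups of 3 replicates, which the study's methods call biological. Wildtype cells received vehicle (PBS/DMSO), 1.5 mM MTOB or 0.25 mM 4-Cl-HIPP for 4 h, and dKO cells received the same 3 treatments. A single vehicle group per genotype was the control for both inhibitors, so the MTOB and 4-Cl-HIPP comparisons share their control samples. MTOB stock was in PBS and 4-Cl-HIPP stock in DMSO, and whether the vehicle held both solvents at matching amounts is not known here. The doses differ, so values for MTOB and 4-Cl-HIPP stand side by side and are not compared. The labels name polyadenylated RNA, whereas the methods mention depletion of ribosomal RNA.

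Levels are in TPM, a unit that corrects for transcript length within a sample and keeps no record of sequencing depth, so the depth of each sample is unknown here. Between 11617 and 11776 genes per sample reached 1 TPM. The authors' mean normalized count of each gene shows the reads behind it. It was 14888 for Hspa8, 7690.2 for Hspd1 and 301 for Dnajb1, but 17.6 for Hspa1b and 0.754 for Hspa1a, so the values of the last pair rest on few reads. In bulk RNA, fewer cells making a transcript and less of it per cell cannot be told apart.

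Ctbp1 and Ctbp2 were read first as a check of the genotype labels. Ctbp1 stood at 212, 238 and 204 TPM in wildtype cells with vehicle and at 24.4, 25.2 and 25.6 TPM in dKO cells with vehicle. With MTOB it was 192, 170.1 and 199 TPM in wildtype and 25.8, 22.0 and 25.0 TPM in dKO, and with 4-Cl-HIPP it was 204, 216 and 236 TPM in wildtype and 22.4, 31.5 and 19.7 TPM in dKO. Every dKO sample was below every wildtype sample, with a log2 fold change under vehicle of -3.07 ± 0.13 (SE, limma, Benjamini-Hochberg adjusted p = 1.61e-10). Ctbp2 moved less, from 87.8, 93.2 and 96.9 TPM in wildtype to 73.5, 74.9 and 79.4 TPM in dKO with vehicle, or by -0.28 ± 0.06 on the log2 scale (SE, adjusted p = 0.00427). Its range under MTOB was 92.1 to 95.5 TPM in wildtype and 68.5 to 81.9 TPM in dKO, and under 4-Cl-HIPP 88.0 to 89.7 TPM and 71.0 to 75.6 TPM. Both genes were lower in dKO under all 3 treatments. A transcript level does not measure the protein, and the study reports the loss of both proteins from western blots.

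The labelled cell type was checked against markers. Of 11 macrophage markers, 10 were in the table and 9 had a mean of at least 1 TPM, led by Csf1r at 840.4 TPM, and they summed to between 2397 and 3493 TPM per sample. Of the markers of other cell types, 0 had a mean of 1 TPM or more, with 1 of 4 in the table for T cells (Cd3d, 0.358 TPM), 2 of 4 for B cells (Cd79a, 0.176 TPM) and 2 of 5 for neutrophils (S100a8, 0.0899 TPM). The lists for fibroblasts (Col1a1, 0.0668 TPM), epithelial cells (Krt8, 0.0768 TPM) and endothelial cells (Pecam1, 0.495 TPM) also had means below 1 TPM. Means over 18 samples hide differences between groups, since Pecam1 averaged 0.0226 TPM in wildtype with vehicle and 1.20 TPM in dKO with vehicle, and Cd3d 1.38 TPM in wildtype with MTOB. Macrophage markers also differed in level between wildtype and dKO with vehicle, with group means of 458 and 143 TPM for Cd14, 29.1 and 8.93 TPM for Adgre1, and 15.8 and 47.9 TPM for Itgam. With MTOB the means of Adgre1 and Cd14 were 102 and 833 TPM in wildtype and 12.6 and 325 TPM in dKO.

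A single sample stood apart from the rest. In dKO cells with MTOB, replicate 1 had 7.04% of its TPM in mitochondrially encoded genes, against 8.99% to 10.3% in the other samples. Log2 fold changes that use it are given below with and without it for members discussed by name and for genes of the pathway lists that passed in dKO with MTOB, and its part in them was not tested.

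The members spanned more than 4 orders of magnitude in mean TPM. Hspa8, the constitutive HSP70 and also the ATPase that uncoats clathrin, led with 2365 TPM over the 18 samples and ranked 45 among all genes. Hspd1, the chaperonin HSP60, followed at 830.1 TPM, ahead of Hsp90aa1, the stress-responsive HSP90 alpha, at 699.8 TPM and Hspe1, the HSP10 lid, at 368 TPM. Dnaja1, a J-domain protein that feeds clients to HSP70, reached 223 TPM, and Hsph1, an HSP110 that exchanges the nucleotide of HSP70, reached 136 TPM. Bag3, an exchange factor that links HSP70 to autophagy, stood at 39.1 TPM and Dnajb1, the HSP40 that stimulates the HSP70 ATPase, at 22.2 TPM. These 8 differed by 1.12-fold to 1.21-fold between their lowest and highest group means. The inducible pair lay far below them, with Hspa1b at 1.57 TPM (rank 11225) and Hspa1a at 0.0575 TPM (rank 16049).

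**Figure D1:**
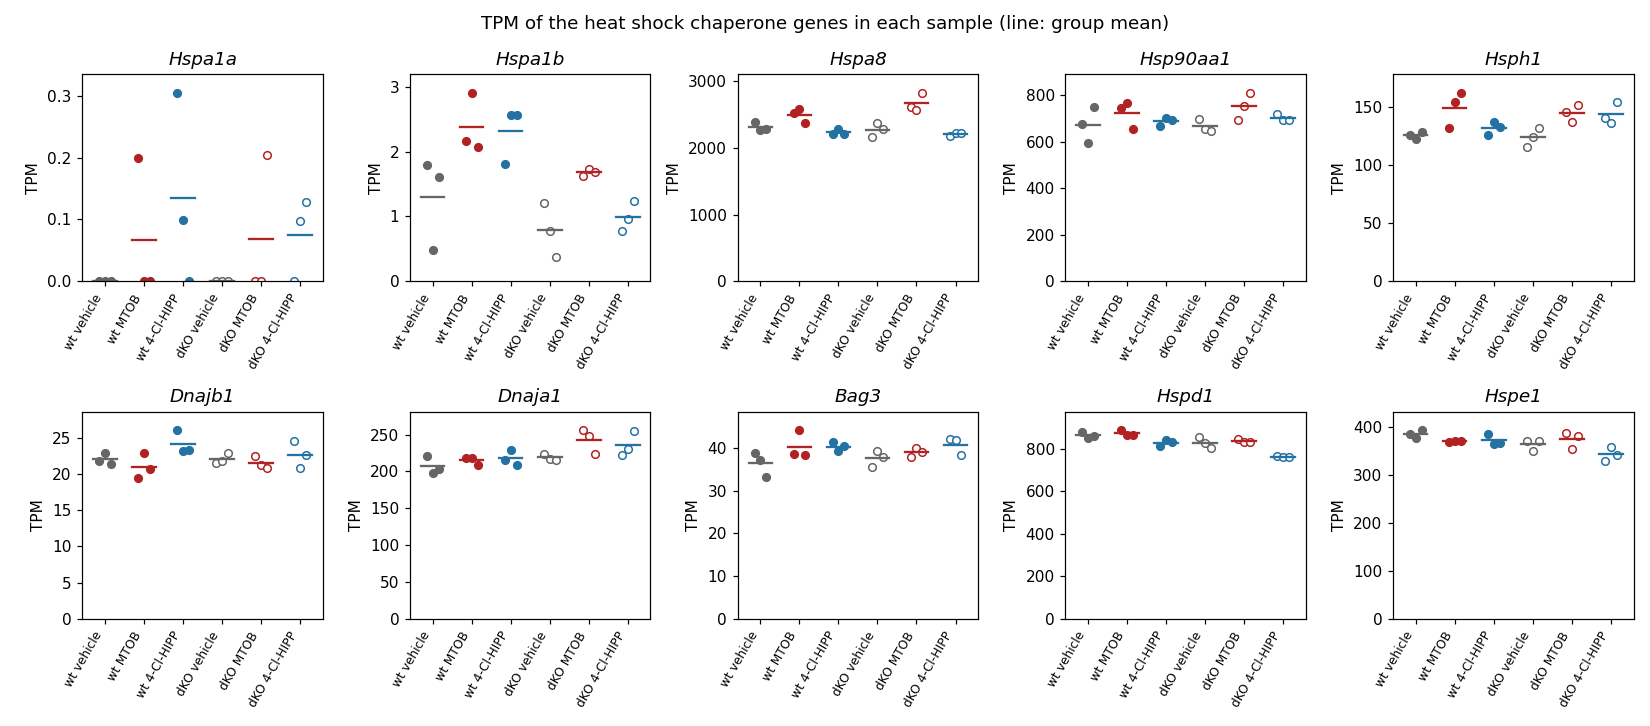
TPM of the 10 genes in each of the 18 samples (vertical axis, linear from 0, a scale of its own per gene) by group (horizontal axis; filled points wildtype, open points dKO; grey vehicle, red MTOB, blue 4-Cl-HIPP; lines are means of 3 replicates). Hspa8 ranged from 2162 to 2824 TPM, with its 3 highest dKO values under MTOB, while Hspa1a was at 0 in 12 of the 18 samples.

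Some of these transcripts cannot be read apart from relatives. Of the 31-base words in the Hspa1a transcript, 70.1% also occur in other genes, and 63.8% of all its words occur in Hspa1b. For Hspa1b the shared part was 68.2%. The share was 80.8% for Hspa8, 58.4% for Hsp90aa1 and 57.3% for Hspd1, mostly with Gm15459, Gm12346 and Hspd1-ps3 in that order. It was 96.2% for Dnaja1, with 87.8% of all its words in Smu1 on the opposite strand, and the library was unstranded. It was 17.7% for Bag3, 0.942% for Dnajb1 and 0% for Hsph1. Hsph1 nevertheless overlaps 956 exon bases of Gm73411 and 289 of Gm20005 on the opposite strand.

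**Figure D2:**
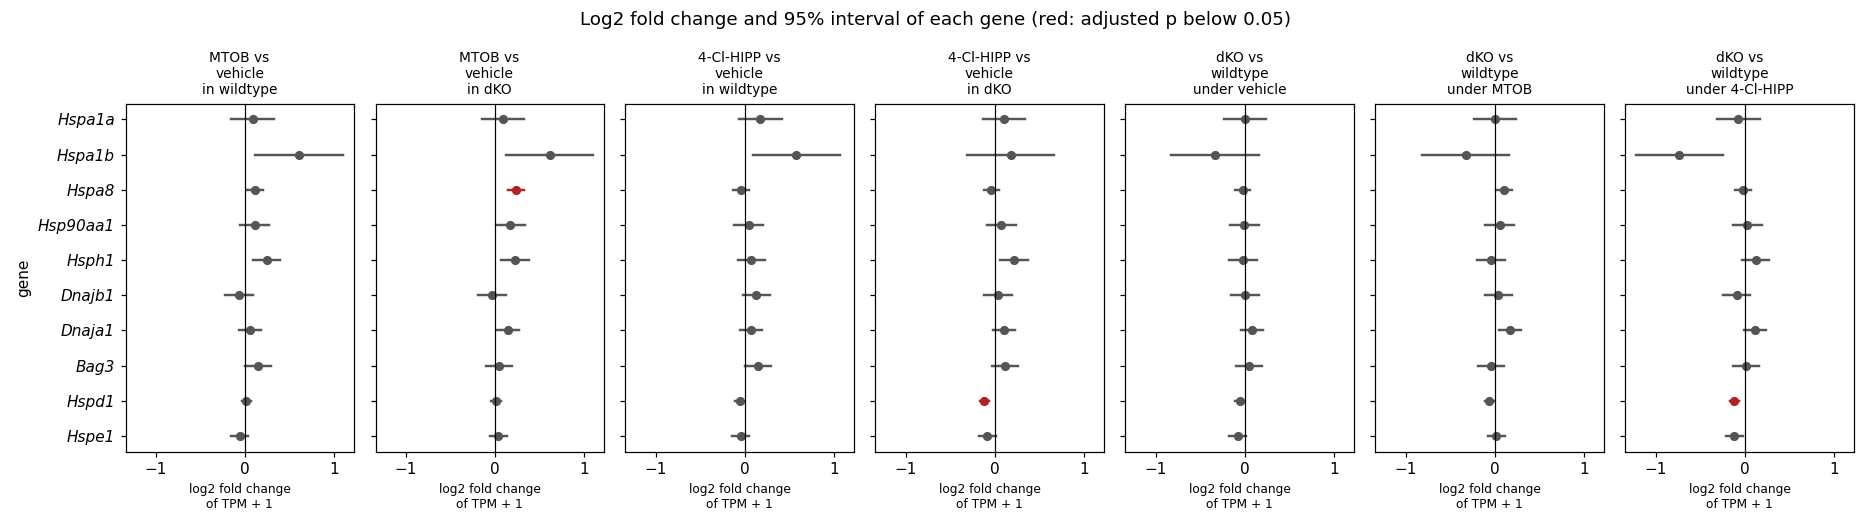
Log2 fold change of TPM + 1 (horizontal axis; points) with 95% confidence intervals (lines) for the 10 genes in the 4 inhibitor comparisons and the 3 genotype comparisons, each with 3 samples per group. Red marks an adjusted p below 0.05, which applied to Hspa8 with MTOB in dKO (0.23), Hspd1 with 4-Cl-HIPP in dKO (-0.12) and Hspd1 in dKO against wildtype under 4-Cl-HIPP (-0.12).

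With MTOB, 8 of 10 members in wildtype and 9 of 10 in dKO had log2 fold changes above 0, beside 46.3% and 45.8% of all genes. Both counts include Hspa1a, which was above 0 TPM in only 1 MTOB sample per genotype. Whether the counts exceed those shares was not tested. A single member passed, Hspa8 in dKO. The largest value in both genotypes was that of Hspa1b and the second that of Hsph1 in wildtype and Hspa8 in dKO. Across all genes, 1189 of 16383 tested passed an adjusted p below 0.05 in wildtype cells (limma; 622 up and 567 down), or 7.26%. Of the members, 0 of 10 passed in wildtype. In dKO cells 1 of 10 passed, Hspa8, beside 6.58% of all genes, a share near the background and so not a result about the set. At an unadjusted p under 0.05 there were 3 of 10 members in wildtype and 5 of 10 in dKO (limma), beside 18.4% and 19.0% of all genes at that threshold. Groups did not overlap for 3 members in wildtype and 4 in dKO, beside 22.6% and 21.0% of all genes. The median log2 fold change of the members was 0.10 in wildtype and 0.12 in dKO, beside -0.01 and -0.01 over all genes tested.

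Hspa8, the constitutive HSP70, measured 2162, 2375 and 2277 TPM in dKO cells with vehicle and 2611, 2575 and 2824 TPM with MTOB. All 3 MTOB samples were above all 3 vehicle samples. The log2 fold change was 0.23 ± 0.04 (SE, 95% interval 0.15 to 0.32), a rise of 17.5% with an adjusted p of 0.00242. Without dKO MTOB replicate 1, Hspa8 rose by 0.25 on the log2 scale (adjusted p = 0.00493). In wildtype cells Hspa8 measured 2388, 2265 and 2278 TPM with vehicle and 2526, 2583 and 2367 TPM with MTOB, and the lowest MTOB sample fell below the highest vehicle sample. That log2 fold change was 0.11 ± 0.04 (SE, adjusted p = 0.149). Passing in dKO alone does not show a difference between genotypes, and the interaction, the wildtype effect minus the dKO effect, was -0.12 ± 0.06 (SE, adjusted p = 0.723), and -0.14 without dKO MTOB replicate 1 (adjusted p = 0.661). A fit restricted to the 6 samples of the comparison gave Hspa8 in dKO an adjusted p of 0.108 and no call, and it ranged from 0.00104 to 0.108 over the alternatives.

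Hsph1, which recharges HSP70 with ATP, measured 126, 122 and 128 TPM in wildtype cells with vehicle and 132, 154 and 162 TPM with MTOB. In dKO cells it measured 115, 124 and 132 TPM with vehicle and 146, 137 and 151 TPM with MTOB. The groups did not overlap in either genotype. The log2 fold change was 0.24 ± 0.07 in wildtype (SE, adjusted p = 0.0555) and 0.22 ± 0.07 in dKO (SE, adjusted p = 0.0831), so neither passed. Without wildtype MTOB replicate 1, the lowest of its group, Hsph1 in wildtype passed at a log2 fold change of 0.33 (adjusted p = 0.00714). It also passed with a pseudocount of 0.1 (adjusted p = 0.0497), over genes with a mean of at least 1 TPM (0.0346) and after median-of-ratios scaling (0.0432), and the adjusted p ranged from 0.00714 to 0.218 over the alternatives. Without dKO MTOB replicate 1 the dKO value was 0.22 (adjusted p = 0.174, in a range of 0.0544 to 0.275 over the alternatives).

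Hspa1b, a stress-inducible HSP70, was scarce in every group. It measured 1.79, 0.479 and 1.61 TPM in wildtype with vehicle and 2.17, 2.90 and 2.07 TPM with MTOB. In dKO it measured 1.21, 0.777 and 0.374 TPM with vehicle and 1.63, 1.73 and 1.69 TPM with MTOB. MTOB samples lay above vehicle samples in both genotypes. On the scale of log2(TPM + 1), which understates folds at such levels, the change was 0.60 ± 0.23 in wildtype (SE, adjusted p = 0.149) and 0.61 ± 0.23 in dKO (SE, adjusted p = 0.144), or 0.63 without dKO MTOB replicate 1 (adjusted p = 0.228). Leaving out each sample moved it between 0.32 and 0.77 in wildtype and between 0.44 and 0.78 in dKO. Over all alternatives the value for Hspa1b ran from 0.32 to 0.99 in wildtype and from 0.44 to 1.13 in dKO. Its near copy Hspa1a was listed at 0 in all 6 vehicle samples and in 4 of 6 MTOB samples, with 0.200 TPM in wildtype replicate 1 and 0.205 TPM in dKO replicate 3.

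The remaining members showed no call with MTOB in either genotype, though Dnaja1 in dKO lay above and Hspe1 in wildtype lay below vehicle without overlap. Hsp90aa1, the inducible HSP90, had log2 fold changes of 0.11 in wildtype and 0.17 in dKO. The J-domain partners of HSP70 gave 0.06 and 0.14 for Dnaja1 and -0.07 and -0.03 for Dnajb1. Bag3 gave 0.14 and 0.05. The mitochondrial pair gave 0.02 and 0.01 for Hspd1 and -0.06 and 0.04 for Hspe1. Without dKO MTOB replicate 1 the dKO values were 0.23 for Hsp90aa1, 0.10 for Dnaja1, -0.06 for Dnajb1, 0.07 for Bag3, 0.00 for Hspd1 and 0.01 for Hspe1, again with no call. Hspd1 in dKO turned to -0.01 without dKO vehicle replicate 3.

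A mean of the wildtype and dKO effects, a contrast chosen after the values were seen, drew on 6 MTOB and 6 vehicle samples. In it 3 of 10 members rose and 0 fell, beside 5.85% and 7.32% of all genes, or 13.2% in either direction. Hspa8 rose by 0.17 ± 0.03 on the log2 scale (SE, adjusted p = 0.000845), and by 0.18 without dKO MTOB replicate 1 (adjusted p = 0.00126). Hsph1 rose by 0.23 ± 0.05 (SE, adjusted p = 0.00559), and by 0.23 without that sample (adjusted p = 0.0129). Hspa1b rose by 0.61 ± 0.16 (SE, adjusted p = 0.0197), and by 0.62 without it (adjusted p = 0.0342). Over the alternatives the value for Hspa1b ran from 0.46 to 1.06. The call for Hspa1b was lost without wildtype MTOB replicate 2 (adjusted p = 0.0534) and without dKO vehicle replicate 3 (adjusted p = 0.0542), in a range of 0.012 to 0.0542 over the alternatives. Hsp90aa1 did not pass at 0.14 ± 0.05 (SE, adjusted p = 0.109), nor at 0.17 without dKO MTOB replicate 1 (adjusted p = 0.0555). It passed without wildtype vehicle replicate 3 (0.18, adjusted p = 0.0284) or wildtype MTOB replicate 3 (0.17, adjusted p = 0.0423), in a range of 0.0284 to 0.243. Hspa8 and Hsph1 passed under every left-out sample of this contrast.

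The test of genotype by MTOB found 0 of 10 members with an effect that differed between wildtype and dKO, with 1 at an unadjusted p under 0.05 (limma), beside 6.89% of all genes at that threshold. Over all genes 15 passed, or 0.0916%. Outside Hspa8 that difference ranged from -0.10 for Hspe1 to 0.09 for Bag3, and without dKO MTOB replicate 1 from -0.12 for Hsp90aa1 to 0.07 for Bag3.

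With 4-Cl-HIPP the only member to pass within a genotype was the mitochondrial chaperonin Hspd1, lower in dKO. Without passing, Hspd1 in wildtype also lay below vehicle without overlap, while Hsph1 in dKO and Hspa1b, Bag3 and Dnajb1 in wildtype lay above it. That made 4 members without overlap in wildtype and 2 in dKO, beside 12.6% and 13.7% of all genes, and whether the members exceed that share was not tested. In wildtype cells 0 of 10 members passed (limma), beside 0.366% of all genes. In dKO cells 1 of 10 passed, beside 0.501% of all genes. At an unadjusted p under 0.05 there were 3 of 10 members in wildtype and 2 of 10 in dKO, beside 8.19% and 8.47% of all genes at that threshold. All-gene totals were 60 genes in wildtype and 82 in dKO, and leaving out each sample gave 19 to 44 and 36 to 80 genes, so these background shares are themselves unsteady. The median log2 fold change of the members was 0.07 in wildtype and 0.09 in dKO, beside 0.01 and 0.00 over all genes.

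Hspd1 measured 854, 827 and 800.5 TPM in dKO cells with vehicle and 766, 759 and 759 TPM with 4-Cl-HIPP. All 3 treated samples were below all 3 vehicle samples. The log2 fold change was -0.12 ± 0.02 (SE, 95% interval -0.17 to -0.07), a change of -7.96% with an adjusted p of 0.0423. In wildtype cells it measured 878, 848 and 857 TPM with vehicle and 812, 838 and 831 TPM with 4-Cl-HIPP, again without overlap. That log2 fold change was -0.06 ± 0.02 (SE, adjusted p = 0.544), and the interaction was 0.06 ± 0.03 (SE, adjusted p = 1).

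The dKO call for Hspd1 was close to its threshold. It was lost without dKO vehicle replicate 1 (adjusted p = 0.164) or replicate 2 (0.134), and without dKO 4-Cl-HIPP replicate 1 (0.117), replicate 2 (0.116) or replicate 3 (0.146). It was also lost with a pseudocount of 0.1 (0.0739), without a variance trend (0.391), in a fit of the 6 compared samples (0.276) and after scaling (0.0674), and the adjusted p ranged from 0.0271 to 0.391 over the alternatives. The log2 fold change of Hspd1 kept its sign throughout, from -0.14 to -0.10. In the mean of both genotypes, chosen after the values were seen, Hspd1 fell by 0.09 ± 0.02 (SE, adjusted p = 0.0141), the 1 of 10 members to pass beside 1.5% of all genes. That call was lost without a variance trend (adjusted p = 0.255, in a range of 0.0064 to 0.255).

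Hspe1, whose protein caps the HSP60 barrel, measured 385, 377 and 392 TPM in wildtype with vehicle and 386, 364 and 366 TPM with 4-Cl-HIPP. In dKO it measured 371, 349.9 and 371 TPM with vehicle and 329, 358 and 342 TPM with 4-Cl-HIPP. Groups overlapped in both genotypes. The log2 fold changes were -0.05 and -0.09, and neither passed.

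Members of the HSP70 system did not pass with 4-Cl-HIPP. Hspa8 measured 2213, 2286 and 2212 TPM in wildtype and 2177, 2226 and 2227 TPM in dKO, with log2 fold changes of -0.05 and -0.04. Hsph1 measured 126, 137 and 133 TPM in wildtype and 140.5, 136 and 154 TPM in dKO. In dKO those samples stood above vehicle without overlap, by 0.21 ± 0.07 on the log2 scale (SE, adjusted p = 0.336), against 0.07 in wildtype. Hspa1b measured 1.81, 2.56 and 2.57 TPM in wildtype and 0.774, 0.961 and 1.24 TPM in dKO, with log2 fold changes of 0.58 ± 0.23 (SE, adjusted p = 0.507) and 0.18 ± 0.23 (SE, adjusted p = 0.926). The wildtype samples of Hspa1b all lay above vehicle, whereas those of dKO overlapped. Leaving out each sample moved Hspa1b between 0.29 and 0.75 in wildtype and between 0.00 and 0.34 in dKO. Over all alternatives the value for Hspa1b ran from 0.29 to 0.95 in wildtype and from 0.00 to 0.40 in dKO. Hspa1a was listed at 0.305 and 0.0999 TPM in wildtype replicates 1 and 2 and at 0.0974 and 0.128 TPM in dKO replicates 2 and 3, and at 0 in the other samples. Bag3 gave 0.15 in wildtype and 0.11 in dKO, Dnajb1 0.13 and 0.03, Dnaja1 0.07 and 0.10, and Hsp90aa1 0.04 and 0.07. Hsp90aa1 in wildtype turned to -0.05 without wildtype vehicle replicate 2, and Dnajb1 in dKO turned to -0.02 without dKO 4-Cl-HIPP replicate 1.

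The interaction of genotype and 4-Cl-HIPP had 0 of 10 members passing (limma), with 0 at an unadjusted p under 0.05 beside 4.48% of all genes, and 0% of all genes passing. Its values for the members ran from -0.14 for Hsph1 to 0.40 for Hspa1b.

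The 8 abundant members, all except Hspa1a and Hspa1b, gave 32 log2 fold changes over the 4 inhibitor comparisons. They ran from -0.12 to 0.24, and the largest rise was 18.3%. Their 95% intervals ran from -0.22 to 0.40. All 32 intervals lay inside a 1.5-fold change in either direction, the limit that the study sets for its own calls. The same bound does not hold for Hspa1b, whose interval with MTOB in wildtype reached 1.09 on the log2 scale.

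The dKO cells had a lower level of Hspd1, clearest under 4-Cl-HIPP, and the genotype comparisons under the 3 treatments share no samples with each other. With vehicle 0 of 10 members passed (limma), beside 10.7% of all genes. Under MTOB 0 of 10 passed, beside 11.2% of all genes. Under 4-Cl-HIPP 1 of 10 passed, Hspd1, beside 10.2% of all genes, a share near the background. At an unadjusted p under 0.05 there were 1, 3 and 3 members in that order (limma), beside 21.4%, 22.4% and 21.1% of all genes at that threshold. Groups did not overlap for 1, 3 and 3 members in that order, beside 26.1%, 23.5% and 25.2% of all genes. Those shares are near or below the background, so the cases without overlap named below are not a result about the set. The median over the members was -0.01, 0.01 and -0.04 in that order, beside 0.01, 0.00 and 0.00 over all genes.

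Under 4-Cl-HIPP, Hspd1 was at 766, 759 and 759 TPM in dKO and at 812, 838 and 831 TPM in wildtype, with no overlap. It fell by 0.12 ± 0.02 on the log2 scale (SE, adjusted p = 0.00398). Without a variance trend that call was lost (adjusted p = 0.0991, in a range of 0.00298 to 0.0991). The log2 fold change of Hspd1 was -0.06 ± 0.02 with vehicle (SE, adjusted p = 0.174) and -0.06 ± 0.02 under MTOB (SE, adjusted p = 0.128). Under MTOB the 3 dKO samples, at 843, 828 and 828 TPM, lay below the wildtype samples at 885, 863 and 864 TPM, and without dKO MTOB replicate 1 the value was -0.07 (adjusted p = 0.106). Hspe1 differed by -0.08 with vehicle, 0.02 under MTOB and -0.12 under 4-Cl-HIPP (adjusted p = 0.132), without overlap in the first and the last. The value for Hspe1 under MTOB turned to -0.01 without dKO MTOB replicate 1.

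Dnaja1 tended the other way. It measured 222, 197 and 203 TPM in wildtype and 224, 217 and 216 TPM in dKO with vehicle, and 219, 218 and 209 TPM in wildtype and 256, 248 and 224 TPM in dKO with MTOB. Only the MTOB groups of Dnaja1 did not overlap. The log2 fold changes were 0.08 ± 0.06 with vehicle (SE, adjusted p = 0.521), 0.17 ± 0.06 under MTOB (SE, adjusted p = 0.0914) and 0.11 ± 0.06 under 4-Cl-HIPP (SE, adjusted p = 0.3). Under MTOB the value for Dnaja1 was 0.13 without dKO MTOB replicate 1 (adjusted p = 0.26). It passed at 0.22 without dKO MTOB replicate 3 (adjusted p = 0.031, in a range of 0.031 to 0.26 over the alternatives).

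Hspa1b was lower in dKO in each treatment. The log2 fold changes were -0.33 ± 0.23 with vehicle (SE, adjusted p = 0.476), -0.33 ± 0.23 under MTOB (SE, adjusted p = 0.471) and -0.73 ± 0.23 under 4-Cl-HIPP (SE, adjusted p = 0.0561). All dKO samples lay below all wildtype samples under both inhibitors, and the groups overlapped with vehicle. Leaving out each sample moved the vehicle value between -0.62 and -0.16, and without dKO MTOB replicate 1 the MTOB value was -0.31 (adjusted p = 0.571). Summing Hspa1a and Hspa1b, which share most of their sequence, gave -0.75 ± 0.23 under 4-Cl-HIPP (SE, adjusted p = 0.0491), which passed. A fit of Hspa1b without a variance trend also passed (adjusted p = 0.0487, in a range of 0.0487 to 0.174). Over the alternatives the value for Hspa1b ran from -1.15 to -0.65 under 4-Cl-HIPP and from -0.46 to -0.22 under MTOB.

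An average over the 3 treatments was a contrast also chosen after the values were seen. In it 1 of 10 members was higher in dKO than in wildtype and 2 were lower. Of all genes 13.1% were higher and 9.27% lower, or 22.4% in either direction. Hspd1 fell by 0.08 ± 0.01 on the log2 scale (SE, adjusted p = 0.000505), and by 0.08 without dKO MTOB replicate 1 (adjusted p = 0.000443). Hspa1b fell by 0.46 ± 0.13 (SE, adjusted p = 0.0179), and by 0.46 without dKO MTOB replicate 1 (adjusted p = 0.0299). Over the alternatives its value ran from -0.74 to -0.41 and its adjusted p from 0.00139 to 0.0401. Dnaja1 rose by 0.12 ± 0.03 (SE, adjusted p = 0.0178), and by 0.11 without that sample (adjusted p = 0.0346). After median-of-ratios scaling the value for Dnaja1 was 0.10 and did not pass (adjusted p = 0.0631, in a range of 0.00593 to 0.0631). The number of dKO clones sequenced is not stated, and a difference of genotype and a difference between clones cannot be told apart here.

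The other genes of protein folding came from 9 lists, drawn up by function, with 98 genes outside the members, of which 91 were tested. With MTOB 2 rose and 7 fell in wildtype, and 3 rose and 1 fell in dKO, or 9.89% and 4.40% of those tested beside 7.26% and 6.58% of all genes. With 4-Cl-HIPP 0 rose and 0 fell in either genotype (limma). Between genotypes 2 rose and 10 fell in dKO with vehicle, 2 and 2 under MTOB, and 0 and 7 under 4-Cl-HIPP, or 13.2%, 4.40% and 7.69% of those tested beside 10.7%, 11.2% and 10.2% of all genes. Taken in either direction, these totals lie near or below the background and are not a result about the lists. Of all genes 3.46% fell with MTOB in wildtype. In dKO 3.72% were lower with vehicle and 3.63% under 4-Cl-HIPP. The 7, 10 and 7 listed genes that fell there include 5 chaperones of the endoplasmic reticulum each time. Whether the falls exceed those shares was not tested. Both interactions gave 0. Without dKO MTOB replicate 1 the counts were 3 and 1 for MTOB in dKO and 2 and 2 for genotype under MTOB, though the genes were not all the same.

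Hsf1, the main factor behind the heat shock response, measured 66.2, 67.6 and 70.0 TPM in wildtype with vehicle and 61.8, 59.8 and 73.6 TPM with MTOB, with overlap. Its log2 fold changes with MTOB were -0.07 in wildtype and -0.18 in dKO (adjusted p = 0.776 and 0.288). Hsf2, a related factor, rose in dKO by 0.31 ± 0.09 (SE, adjusted p = 0.0472), with 15.7, 16.5 and 14.6 TPM becoming 21.0, 19.1 and 18.4 TPM. Without dKO MTOB replicate 1 the value for Hsf2 was 0.25 and did not pass (adjusted p = 0.162). In wildtype Hsf2 gave 0.30 ± 0.09 (SE, adjusted p = 0.0514). Hsbp1, which binds HSF1 trimers, was lower in dKO with vehicle (-0.28 ± 0.07, SE, adjusted p = 0.0171). It was also lower under 4-Cl-HIPP (-0.24 ± 0.07, SE, limma, adjusted p = 0.044) but did not pass under MTOB.

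Sqstm1, the autophagy receptor p62, rose most of the listed genes with MTOB. It went from 136, 138 and 127 TPM to 299.6, 328 and 303 TPM in wildtype, by 1.21 ± 0.07 on the log2 scale (SE, adjusted p = 1.52e-08), and by 1.08 ± 0.07 in dKO (SE, adjusted p = 6e-08), or 1.02 without dKO MTOB replicate 1. Bag4, an exchange factor like Bag3, fell by 0.70 ± 0.18 in dKO (SE, adjusted p = 0.028), and by 0.83 without that sample (adjusted p = 0.0201). Of the J-domain list 1 of 12 passed, Dnajb4, which rose by 0.66 ± 0.15 in dKO (SE, adjusted p = 0.0138), and by 0.76 without that sample (adjusted p = 0.0133). Neither Bag4 nor Dnajb4 passed with MTOB in wildtype, but the difference between genotypes did not pass for either gene. Dnajb4 was lower in dKO than in wildtype with vehicle (-0.71 ± 0.15, SE, limma, adjusted p = 0.00502) and under 4-Cl-HIPP (-0.69 ± 0.15, SE, limma, adjusted p = 0.00635). It did not pass between genotypes under MTOB. Of the 15 genes with Hsp90ab1, the constitutive HSP90 at 1978 TPM, 1 fell with MTOB in wildtype, the HSP90 activator Ahsa1 (-0.15 ± 0.04, SE, adjusted p = 0.0489). Hsp90ab1 itself gave 0.03 and 0.01.

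Among chaperones of the endoplasmic reticulum, 5 of 12 fell in wildtype with MTOB, among them Hsp90b1 (-0.14 ± 0.03, SE, adjusted p = 0.0101) and Pdia4 (-0.25 ± 0.05, SE, adjusted p = 0.00529), beside 3.46% of all genes that fell, and 0 of 12 in dKO. The difference between genotypes did not pass for any of the 12. In dKO with vehicle 5 of 12 were lower than in wildtype, beside 3.72% of all genes that were lower. Sdf2l1 led them (-0.59 ± 0.06, SE, adjusted p = 4.83e-06). Dnajb9 was the 1 that was higher with vehicle (0.42 ± 0.12, SE, adjusted p = 0.0406), and 0 were higher under either inhibitor. Under MTOB 2 were lower in dKO, Hyou1 and Sdf2l1, beside 4.18% of all genes. Without dKO MTOB replicate 1 Hyou1 did not pass (-0.12, limma, adjusted p = 0.0945). Under 4-Cl-HIPP 5 were lower, beside 3.63% of all genes. Of the 14 mitochondrial chaperones and proteases, the compartment of Hspd1 and Hspe1, 0 passed with either inhibitor within a genotype. Hspa9, the mitochondrial HSP70 at 466 TPM, gave -0.07 in wildtype and -0.06 in dKO with 4-Cl-HIPP (adjusted p = 0.547 and 0.645). Of 14 genes of the TRiC chaperonin and prefoldin, Cct2 rose with MTOB in wildtype by 0.11 ± 0.03 (SE, adjusted p = 0.043). Of the 7 other HSP70 and HSP110 genes and the 3 small heat shock proteins tested, 0 passed with either inhibitor within a genotype.

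Genes whose pattern over the 18 samples was most like the mean of the members were sought among 8170 genes whose mean normalized count reached 100. Each member was first put on a common scale as a z-score of log2(TPM + 1), so Hspa1a, at 0 in 12 of the 18 samples, weighed as much as any other. The members did not share a single pattern. Pairs of them correlated from -0.447 (Hspa8 and Dnajb1) to 0.643 (Hspd1 and Hspe1), so likeness to their mean is not likeness to each member. The nearest were the prolidase gene Pepd (Pearson's r = 0.818), the receptor gene Tlr2 (0.812), the zinc exporter gene Slc30a1 (0.772), Polr1d (0.758) and Clip2 (0.758). With each group's mean removed, r stayed at 0.752 for Pepd and 0.758 for Polr1d and was 0.0129 for Tlr2, 0.137 for Slc30a1 and 0.271 for Clip2. At a minimum count of 10 in place of 100, 2 of the 5 were shared, Pepd and Tlr2. Tlr2 rose with MTOB by 0.58 ± 0.05 in wildtype (SE, adjusted p = 3.85e-06) and by 0.64 ± 0.05 in dKO (SE, adjusted p = 1.27e-06). It also rose with 4-Cl-HIPP in wildtype, by 0.29 (adjusted p = 0.023), but did not pass in dKO (0.25, adjusted p = 0.0558). Slc30a1 rose with MTOB by 0.50 in wildtype and 0.70 in dKO (limma, adjusted p = 0.00284 and 0.000193). Clip2 rose with MTOB by 0.45 and 0.55 in that order (limma, adjusted p = 0.00177 and 0.000431). With 4-Cl-HIPP Clip2 rose by 0.43 in wildtype (adjusted p = 0.023) and did not pass in dKO (0.37, adjusted p = 0.0542). Pepd gave 0.10 with MTOB in wildtype (adjusted p = 0.628) and rose in dKO by 0.34 (adjusted p = 0.0258). Polr1d passed in neither genotype, at 0.11 (adjusted p = 0.315) and 0.10 (adjusted p = 0.386). These r values are descriptions.

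Sequence upstream of the members was read because the set is defined by a shared response that acts there. A RefSeq table of promoters (build GRCm38.p6) held 13 entries for 8 of the 10 members, all except Hspa8 and Hsp90aa1. The 250 bases before each start were searched for the unit of the heat shock element in its 2-unit forms GAANNTTC and TTCNNGAA and its 3-unit forms TTCNNGAANNTTC and GAANNTTCNNGAA, where N is any base. The 2-unit forms read the same on both strands, each 3-unit form is the other read on the opposite strand, and every 3-unit match holds a match to both 2-unit forms. Of 32851 promoters of all genes, 6.69% held GAANNTTC, 7.17% TTCNNGAA and 12.8% either. Of the members with an entry, 6 held a 2-unit form, namely Hspa1a, Hspa1b, Hsph1, Dnaja1, Hspd1 and Hspe1. Counted by entry, as the share of all promoters is, that was 7 of 13, with no match in 1 of 2 entries of Hspd1 and 2 of 3 of Dnaja1. These 7 entries are not separate sites. Both entries of Hsph1 hold the same match, at -33 and -54 from their starts, and the promoters of Hspa1a and Hspa1b are near copies. Either 3-unit form was in 0.466% of all promoters and in 2 of the 13 entries, 1 each of Hspd1 and Hspe1. Those 2 entries hold the same bases read on opposite strands, so their matches, in the 2-unit forms as well, are 1 stretch counted in both. Dnajb1 and Bag3 had 0 matches, which says only that these letters are not in this window. A match is a description of the sequence and not a binding site.

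Hspa1a (ENSMUSG00000091971) lies on the minus strand at chr17:35188166-35191132 of GRCm39, and Hspa1b (ENSMUSG00000090877) on the same strand at chr17:35175412-35178214. Their promoters differ at 3 of 250 bases and at 1 of the last 150, so the paralogs share nearly all of the sequence before their starts as well as most of their transcripts. The last 150 bases are shown 5′ to 3′ because they let the pair be compared, with the match to GAANNTTC at -104 from the start in capitals. They run over chr17:35191133-35191282 for Hspa1a and chr17:35178215-35178364 for Hspa1b, upstream of the annotated exons, and the coordinates come from an exact match of the RefSeq sequence to GRCm39.
Hspa1a: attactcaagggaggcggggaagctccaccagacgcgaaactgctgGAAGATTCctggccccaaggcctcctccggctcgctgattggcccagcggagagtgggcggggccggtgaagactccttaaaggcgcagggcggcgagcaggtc
Hspa1b: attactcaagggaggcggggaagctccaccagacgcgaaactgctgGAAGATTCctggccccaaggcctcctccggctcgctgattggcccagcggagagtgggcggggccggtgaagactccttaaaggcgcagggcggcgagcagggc

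Hspd1 (ENSMUSG00000025980, chr1:55116989-55171038, minus strand) and Hspe1 (ENSMUSG00000073676, chr1:55127260-55130476, plus strand) are arranged head to head, with main Gencode starts 108 bases apart on opposite strands, and share 143 exon bases. A single stretch therefore lies upstream of both main starts, though inside the annotated span of Hspd1. It holds TTCNNGAANNTTC at -89 from the RefSeq start of Hspe1, which differs from the Gencode start, overlapped by GAANNTTCNNGAA at -84. The 25 bases around the first are shown on the plus strand (chr1:55127212-55127236 of GRCm39, overlapping annotated exons), with that match in capitals, because Hspd1 is the member that passed with 4-Cl-HIPP. Hsph1 (ENSMUSG00000029657, chr5:149537636-149560156, minus strand) holds TTCNNGAA at -33 from the RefSeq start of its first entry, in capitals in the 24 bases of its own strand at chr5:149559819-149559842, also overlapping annotated exons. Hsph1 is shown as a member that rose with MTOB in the mean of both genotypes. Both come from RefSeq with coordinates from an exact match to GRCm39.
Hspe1: ggtccgTTCTAGAACCTTCcggaag
Hsph1: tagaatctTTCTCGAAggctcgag

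Hspa8 (ENSMUSG00000015656), which rose with MTOB in dKO, lies at chr9:40711630-40731039 on the plus strand. Dnaja1 (ENSMUSG00000028410) lies at chr4:40722056-40737149 on the plus strand, where it shares 7150 exon bases with Smu1 on the other strand, and its first promoter entry holds GAANNTTC at -124. Hsp90aa1 (ENSMUSG00000021270) lies at chr12:110656842-110669166 on the minus strand, Dnajb1 (ENSMUSG00000005483) at chr8:84334811-84339820 and Bag3 (ENSMUSG00000030847) at chr7:128125283-128148705, both on the plus strand. All positions are those of the Gencode annotation on GRCm39.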

How the data were processed

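Poly(A)-labelled RNA-seq of 18 J774.1 samples was used (6 groups of 3). The authors quantified reads with Salmon 1.9.0 on a Gencode GRCm39 transcriptome and deposited TPM per gene and sample, not counts, so no depth per sample is known. The deposited table also holds a signal per gene, the authors' mean normalized count from DESeq2 1.44.0, used here for filtering and the variance trend. The authors' deposited log2 fold changes and their adjusted p-value columns, each for an inhibitor against vehicle within a genotype, were not used.

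From TPM, log2(TPM + 1) was fitted per gene with group means in limma 3.58.1 (R 4.3.3), with a variance trend over genes above the 10th percentile of the signal (0.222), which left 16383 genes and all 10 members. Each contrast was adjusted by Benjamini-Hochberg over all genes, and an adjusted p below 0.05 passed. The procedure was tested on simulated data. Members, lists and tests were chosen with earlier results of these data known. Named genes are all members, Ctbp1 and Ctbp2, the 5 nearest profiles and listed genes that passed, at most 4 per list and contrast, with each list's most abundant gene. The 3 mean contrasts and the lists without dKO MTOB replicate 1 were added after the values were seen, as were the shares of all genes at an unadjusted p and without overlap.

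The sequence that Hspe1 transcripts share with other genes is not reported here. Size factors by median of ratios ran from 0.968 to 1.02. Alternatives were a pseudocount of 0.1, other filters, no variance trend, only the compared groups, replicate as a block, that scaling, a fold limit of 1.5, a sum of Hspa1a and Hspa1b, and each sample left out.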

Additional observations from a re-analysis of the deposited data

How the results depend on the processing

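Of 862 alternative values of 61 log2 fold changes of members, 856 kept their direction and 6 reversed, 0 of them among values that had passed. The reversed values were -0.0469 for Hsp90aa1 with 4-Cl-HIPP in wildtype without wildtype vehicle replicate 2, -0.0244 for Dnajb1 with 4-Cl-HIPP in dKO without dKO 4-Cl-HIPP replicate 1, -0.0128 for Hspd1 with MTOB in dKO without dKO vehicle replicate 3, -0.012 for Hspe1 between genotypes under MTOB without dKO MTOB replicate 1, and 0 for Hspa1a with MTOB without wildtype MTOB replicate 1 or dKO MTOB replicate 3, the samples that held its reads. Of the rest, 11 gained a call and 18 lost it. Over the samples left out these values ranged from -0.0469 to 0.12 for Hsp90aa1, from -0.0244 to 0.0911 for Dnajb1, from -0.0128 to 0.0342 for Hspd1, from -0.012 to 0.0543 for Hspe1, and from 0 to 0.132 in wildtype and 0 to 0.135 in dKO for Hspa1a. The cause was not tested unless stated.

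Counts of members that passed stayed within 1.5-fold in 187 cases and moved in 26. With MTOB in wildtype the count of 0 became 1 (Hsph1) with a pseudocount of 0.1, over genes with a mean of at least 1 TPM (fewer genes tested), after median-of-ratios scaling and with a replicate block. With MTOB in dKO the count of 1 became 0 with only the compared groups (fewer samples) and with the fold limit, and 2 (Hspa8 and Hsph1) with the replicate block. With 4-Cl-HIPP in dKO the count of 1 became 0 with a pseudocount of 0.1, no variance trend, only the compared groups, the replicate block, scaling and the fold limit. Between genotypes under 4-Cl-HIPP the count of 1 became 0 with the fold limit and 2 (Hspd1 and Hspa1b) with Hspa1a and Hspa1b summed. In the mean contrasts the count of 3 for MTOB became 1 (Hspa1b) with the fold limit and 2 with the replicate block, where Hspa1b gave an adjusted p of 0.0572. The count of 1 for 4-Cl-HIPP became 0 without a trend and with the fold limit, and that of 3 for genotype became 0 with the fold limit and 2 with the replicate block, where Hspa1b gave 0.0504. The fold limit removes members by its construction, since the abundant ones moved by less. The 5 nearest profiles shared 2 at the lower count minimum.

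Replicate numbers did not pair the samples, and the replicate block is given here alone and enters no range of alternatives in the results. Over 8178 genes, residuals of same-numbered samples within a genotype correlated between -0.124 and 0.0809, and 2 of 18 samples correlated best with their own number.

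Leaving out each sample, the member counts ranged from 0 to 1 for MTOB in wildtype, from 0 to 1 for 4-Cl-HIPP in dKO, from 0 to 1 between genotypes under MTOB and from 2 to 4 in the mean for MTOB.

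Counts over all genes moved by more than 1.5-fold with only the compared groups, to 699 for MTOB in wildtype, 305 for MTOB in dKO, 24 and 9 for 4-Cl-HIPP in wildtype and dKO, 995 for genotype under MTOB and 2 for the interaction with 4-Cl-HIPP. With a replicate block they moved to 35 for 4-Cl-HIPP in wildtype and 6 for the interaction with MTOB, which was also 6 without a trend. The fold limit left 329 and 267 genes for MTOB, 23 and 25 for 4-Cl-HIPP, 792 and 811 for genotype with vehicle and under MTOB (a similar number under 4-Cl-HIPP), 7 for the interaction with MTOB, and 314, 34 and 852 for the means. Leaving out each sample gave 19 to 44 genes for 4-Cl-HIPP in wildtype, lowest without wildtype vehicle replicate 3 (19) or wildtype 4-Cl-HIPP replicate 2 (21), 36 to 80 in dKO, 7 to 20 for the interaction with MTOB and 0 to 3 for that with 4-Cl-HIPP.

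With 3 samples a group and no depth known, changes in Hspa1a and Hspa1b rest on few reads, and Hspa1a supports no fold. TPM keeps no record of the sampling error of its reads, so the precision was estimated from the replicates. Reads of paralogs, pseudogenes and genes on the other strand were assigned by the authors' quantification, whose share in the values of Hspa8, Dnaja1 and Hspd1 was not tested.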
